A study of Homo sapiens with 18 samples.

Results

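The genes encoding the subunits, caps and assembly chaperones of the proteasome were followed in RNA-seq counts of NCI-H1299 cells. The protein-coding genes of the count matrix, matched by Ensembl identifier, were taken where the symbol began with PSM, one of the letters A to G and a number. PSMB8 and PSMB9, 2 subunits induced by interferon, were left out. The choice gave 47 of the 63677 genes in the matrix, and 45 of these 47 had enough counts to be tested. PSMA8, a subunit of the testis proteasome, had 0 to 1 counts per library and PSMB11, a thymus subunit, had 0 to 2, so neither was tested. The tested genes were 7 of the alpha ring and 7 of the beta ring of the 20S core, 9 of the base and 8 of the lid of the 19S cap, 5 of other caps and an inhibitor, and 7 assembly chaperones. Another 2 tested genes, PSMC3IP and PSME3IP1, share the symbol pattern without encoding a subunit. PSMC3IP encodes a partner of recombinases in meiosis and PSME3IP1 a protein that binds the PSME3 cap.

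The proteasome degrades proteins that carry ubiquitin chains. Its core is a barrel of stacked rings, in which outer alpha rings gate the entry and inner beta rings hold the proteolytic sites, and its 19S cap recognises ubiquitin, removes it and threads the substrate into the barrel with a ring of ATPases. Other caps open the barrel without ubiquitin, and dedicated chaperones bring the alpha ring and the ATPase ring together. Cells whose proteasome is inhibited raise many subunit genes together through the factor NFE2L1, and tumour cells are known for their need of proteasome capacity.

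NCI-H1299 is a line of human non-small cell lung cancer cells, here at passages 12 to 14. Cells were transfected transiently, with a lipid reagent, with plasmids that carry TBX2, TBX3, TBX4 or TBX5, T-box transcription factors of 1 subfamily, to follow what each factor does to the transcriptome when it is expressed again. TBX2 and TBX4 carried a Flag tag, TBX3 an HA tag, and the TBX5 plasmid held the mouse gene with an HA tag. Empty vector went into the cells of 3 control libraries (EV), and another 3 control libraries carry the label Ctl without a named treatment, and each TBX had 3 libraries, lettered a, b and c. Each TBX was compared with the 6 pooled controls, so the 4 comparisons share the same control libraries. Nothing states that the 3 libraries of a group came from separate cultures, so p-values measure only the spread between samples, which may be technical.

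The depth per library ran from 7365221 counts in TBX2 replicate a to 11743179 in EV replicate c, around a median of 9167758. The most counted gene of the matrix, ENSG00000266658, which has no symbol in the annotation, took 10.7% of the counts in TBX3 replicate c and 53.5% in TBX5 replicate b. The proteasome genes shared what was left, from 15607 counts in TBX5 replicate b to 52409 in EV replicate c. Levels are therefore given as CPM, the counts of a gene relative to the size of its library, after TMM scaling, which rests on a trimmed mean of gene ratios between libraries, and on this scale the summed level of the proteasome genes ran only from 2998 CPM in TBX3 replicate b to 3288 CPM in EV replicate c. A level of 3 counts, taken as the floor of detection, equals 0.255 to 0.407 CPM before this scaling and covers counting error only. In 4 of the 6 groups, the library with the highest median of the proteasome genes was the one with the lowest share of the most counted gene. The part of that share in the results was not tested beyond the other scalings given below. In bulk RNA, fewer cells that express a gene and less RNA per cell cannot be told apart.

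The transfected genes were high in the libraries of their group. TBX2 reached 4086, 4821 and 4497 CPM in its own libraries a, b and c, against 3.07 to 4.83 CPM in the controls. TBX3 reached 17745, 25411 and 22559 CPM against 1.37 to 3.33 CPM, and TBX4 reached 7543, 8497 and 7888 CPM against at most 0.0992 CPM. Human TBX5, on which reads of the mouse plasmid were counted, reached 129, 231 and 242 CPM against 0 CPM in every control. Of the 3 TBX4 libraries, c carries a label that ends in TBX5 and does not match its content, since it held 7888 CPM of TBX4 and 0.0926 CPM of TBX5. Reads of TBX3 were also above the controls in the TBX4 libraries, at 6.57 to 6.85 CPM, and in the TBX5 libraries, at 7.74 to 13.2 CPM. TBX4 likewise had 1.79 to 1.95 CPM in the TBX2 libraries, 0.422 to 1.51 CPM in the TBX3 libraries and 1.22 to 3.57 CPM in the TBX5 libraries, and the source of these low counts was not tested.

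Among the marker genes of the line, the mesenchymal VIM stood at 861 to 970 CPM and CDH2 at 28.4 to 30.7 CPM in the controls, and the epithelial keratins KRT8 and KRT18 stood at 33.3 to 40.9 CPM and 61.2 to 75.8 CPM. EPCAM, CDH1, the lung markers NKX2-1, NAPSA, SFTPB and SFTPC and the blood marker PTPRC were at 1.15 CPM or less in every library. KRT8 fell by 0.79 on the log2 scale with TBX2, by 0.45 with TBX3 and by 0.23 with TBX4, and it rose by 0.26 with TBX5. KRT18 fell by 0.56 with TBX2 and by 0.41 with TBX3, and its values of -0.18 with TBX4 and -0.07 with TBX5 were not called. VIM fell by 0.31 with TBX2 and by 0.24 with TBX3, where all libraries were below the controls, as were all libraries of TBX4. CDH2 fell by 0.26 with TBX2, 0.23 with TBX4 and 0.25 with TBX5. The part of these markers in the values of the proteasome genes was not tested.

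Per kilobase of transcript, the control libraries held the proteasome genes at very uneven levels. PSMB1, a beta-ring subunit without a proteolytic site, stood highest at 234 ± 12.1 CPM per kilobase (SD, n = 6), followed by PSMB7 at 142 ± 5.71 and the lid subunit PSMD8 at 134 ± 11.3. The genes of the beta ring had a median of 89.0 CPM per kilobase, those of the base 50.2, those of the lid 28.6, the other caps and inhibitor 19.3, the assembly chaperones 16.4 and the alpha ring 16.2. At the low end stood PSMB10, the subunit that takes the place of PSMB7 in the immunoproteasome, at 0.972 ± 0.286 CPM per kilobase, the base chaperone PSMD9 at 2.45 ± 0.337 and the alpha-ring genes PSMA2 at 4.48 ± 0.448 and PSMA6 at 5.72 ± 0.984. The proteins of a ring are present in equal numbers, so these differences are levels of counted RNA and not of subunits. Reads on overlapping genes and pseudogenes add uncertainty, since the counting did not use the strand. Of the exon bases, 29.7% of PSMA2, 14.1% of PSMA6, 39.4% of PSMB10 and 31.2% of PSMD7 lie on another annotated gene, and for PSMC1, an ATPase of the base, the share is 76.1%, all of it shared with NRDE2. PSMC1 also has 13 numbered pseudogenes, PSME2 has 6 and PSMA6 has 4, so the values of these genes are uncertain. PSMG1 shares no exon base and has no numbered pseudogene, and PSMD8 and PSMD14 share no exon base and have 1 numbered pseudogene each.

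**Figure D1:**
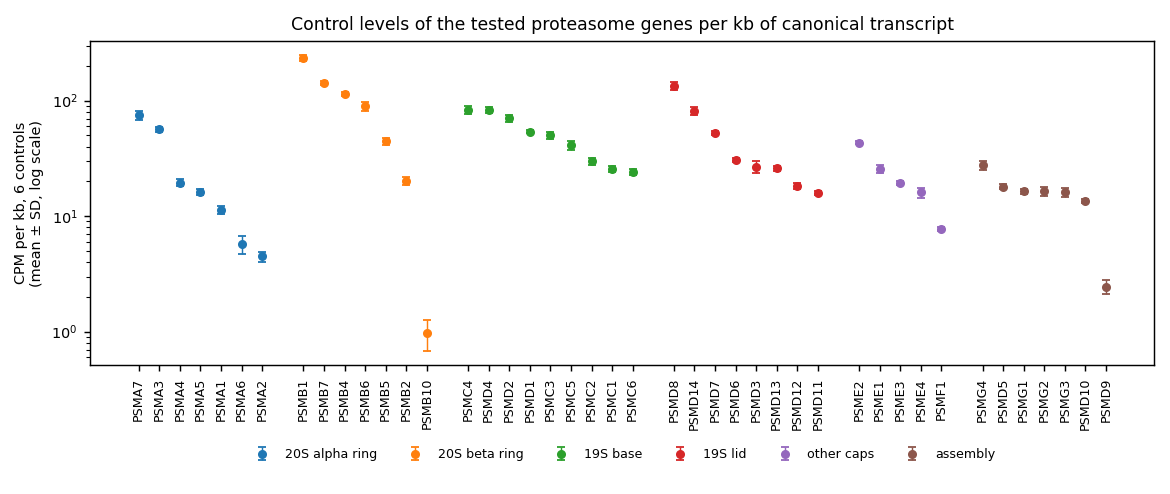
Levels of the tested proteasome genes in the 6 control libraries, in CPM per kilobase of transcript on a log axis, with points at the mean and bars for the SD, arranged by role. PSMB1 at 234 CPM per kilobase and PSMB10 at 0.972 mark the ends of the range.

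Among the 6 control libraries the proteasome genes varied little. Their coefficient of variation had a median of 6.94%, against 10.8% for all 15576 genes tested, beside a median level of 59.4 CPM against 10.7 CPM over all libraries. The most variable member was PSMB10, at 29.4%. EV was compared with Ctl to see whether the empty vector itself moves these genes. By the quasi-likelihood test of edgeR, with p adjusted over all genes tested by the method of Benjamini and Hochberg, 0 of 45 had an adjusted p under 0.1, the threshold used throughout, where 0.385% of all genes did. At an unadjusted p under 0.05 the count was 5, a looser threshold for which no share of all genes is given here or below. DESeq2 called 0 members. Without Ctl replicate c, the base ATPase PSMC4 alone passed, with a log2 difference of 0.23, where 1.48% of all genes passed. The 3 EV libraries lay wholly above or below the 3 Ctl libraries for 11 of 45 genes, against 14.5% of all genes. Of these, 9 were above, among them the ATPases PSMC4 and PSMC6 and the scaffold subunit PSMD2, and 2 were below, the beta-ring gene PSMB2 and the chaperone PSMG1. PSMD2 had 220.4, 209 and 222 CPM in EV replicates a, b and c and 198, 197 and 182 CPM in Ctl, a log2 difference of 0.17 with an SE of 0.0587. PSMG1 had 28.7, 26.3 and 27.8 CPM in EV and 30.5, 30.0 and 29.6 CPM in Ctl, a log2 difference of -0.12 (SE 0.0753, adjusted p = 0.660). The median log2 difference of the 43 subunit and chaperone genes was 0.05, next to 0.00 for all genes, with 29 values positive and 14 negative. This median was 0.01 without EV replicate c and 0.08 without EV replicate b.

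Against the 6 controls, the calls of edgeR with TMM were most frequent with TBX2, among the proteasome genes and among all genes. With TBX2, 15 of 45 genes were called at an adjusted p under 0.1, against 32.6% of all genes, and they split into 6 called higher, against 17.0%, and 9 called lower, against 15.6%. With TBX3, 6 of 45 were called, against 14.9%, of which 1 was higher, against 8.47%, and 5 were lower, against 6.40%. With TBX4, 3 of 45 were called, against 13.0%, of which 1 was higher, against 6.97%, and 2 were lower, against 6.07%. With TBX5, 3 of 45 were called, against 12.7%, of which 1 was higher, against 6.55%, and 2 were lower, against 6.12%. As shares of the 45, the calls with TBX2 and TBX3 were close to those of all genes, and those with TBX4 and TBX5 were lower. DESeq2 called 10, 6, 3 and 3 members for TBX2, TBX3, TBX4 and TBX5, where it called 26.1%, 11.2%, 8.74% and 8.72% of all genes. All 3 libraries of a TBX fell outside the range of the 6 controls for 4 of 45 genes with TBX2, against 24.5% of all genes. This count was 7 with TBX3, against 14.5%, 3 with TBX4, against 12.6%, and 6 with TBX5, against 14.0%. No called member reached an absolute log2 change of 0.5, and the median absolute change of the 43 subunit and chaperone genes was 0.12, 0.09, 0.06 and 0.10 in the same order, under the 0.21, 0.14, 0.13 and 0.16 of all genes.

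Leaving out 1 library changed these counts by over 1.5 times in several cases. The TBX2 count became 6 without TBX2 replicate a, with 4 higher and 2 lower, and 7 without TBX2 replicate c, with 3 higher and 4 lower. In the same fits 26.5% and 26.3% of all genes were called. The TBX3 count became 2 without TBX3 replicate a, both of them lower, where 10.5% of all genes were called. The TBX4 count became 5 without Ctl replicate a and 7 without EV replicate c. It stayed at 3 without TBX4 replicate c, the library whose label ends in TBX5. Of all genes, 12.2%, 14.4% and 8.89% were called in these fits. The TBX5 count became 5 without Ctl replicate a and 1 without TBX5 replicate b, where 11.8% and 7.95% of all genes were called. The split by direction moved with the scaling. With library totals in place of TMM, edgeR called 0 members with TBX2, TBX3 and TBX5 and 7 with TBX4, all of them higher. Under the same scaling the calls among all genes were 6.76% for TBX2, 0.225% for TBX3, 18.03% for TBX4 and 0.584% for TBX5, and 98.8% of the TBX4 calls were higher. Library totals also brought the median of all genes to 0.25 with TBX4 and to -0.31 with TBX5, and in EV against Ctl to 0.20. With totals that leave out the most counted gene, the TBX3 calls were 0 higher and 11 lower and the TBX4 calls 1 higher and 4 lower. Of all genes, 16.5% were then called with TBX3 and 13.6% with TBX4, and 33.8% and 42.4% of these calls were higher. With TMM the higher shares of the calls among all genes were 57.0% and 53.5%. With a correction for GC content the TBX3 calls were 0 higher and 6 lower, where 15.5% of all genes were called, 51.8% of them higher. The choice of controls also ended calls. Against the Ctl controls alone the calls lost with TBX2 were those on PSMB1, PSMB5, PSMC1, PSMD10, PSMD12, PSMD14, PSME2, PSME4 and PSMG4, with TBX3 those on PSMB5, PSMD14, PSMD4 and PSME4, and with TBX5 that on PSMD14. Against the EV controls alone the calls lost were those on PSMC6, PSMD2 and PSME2 with TBX2 and on PSMG1 with TBX3 and TBX4.

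**Figure D2:**
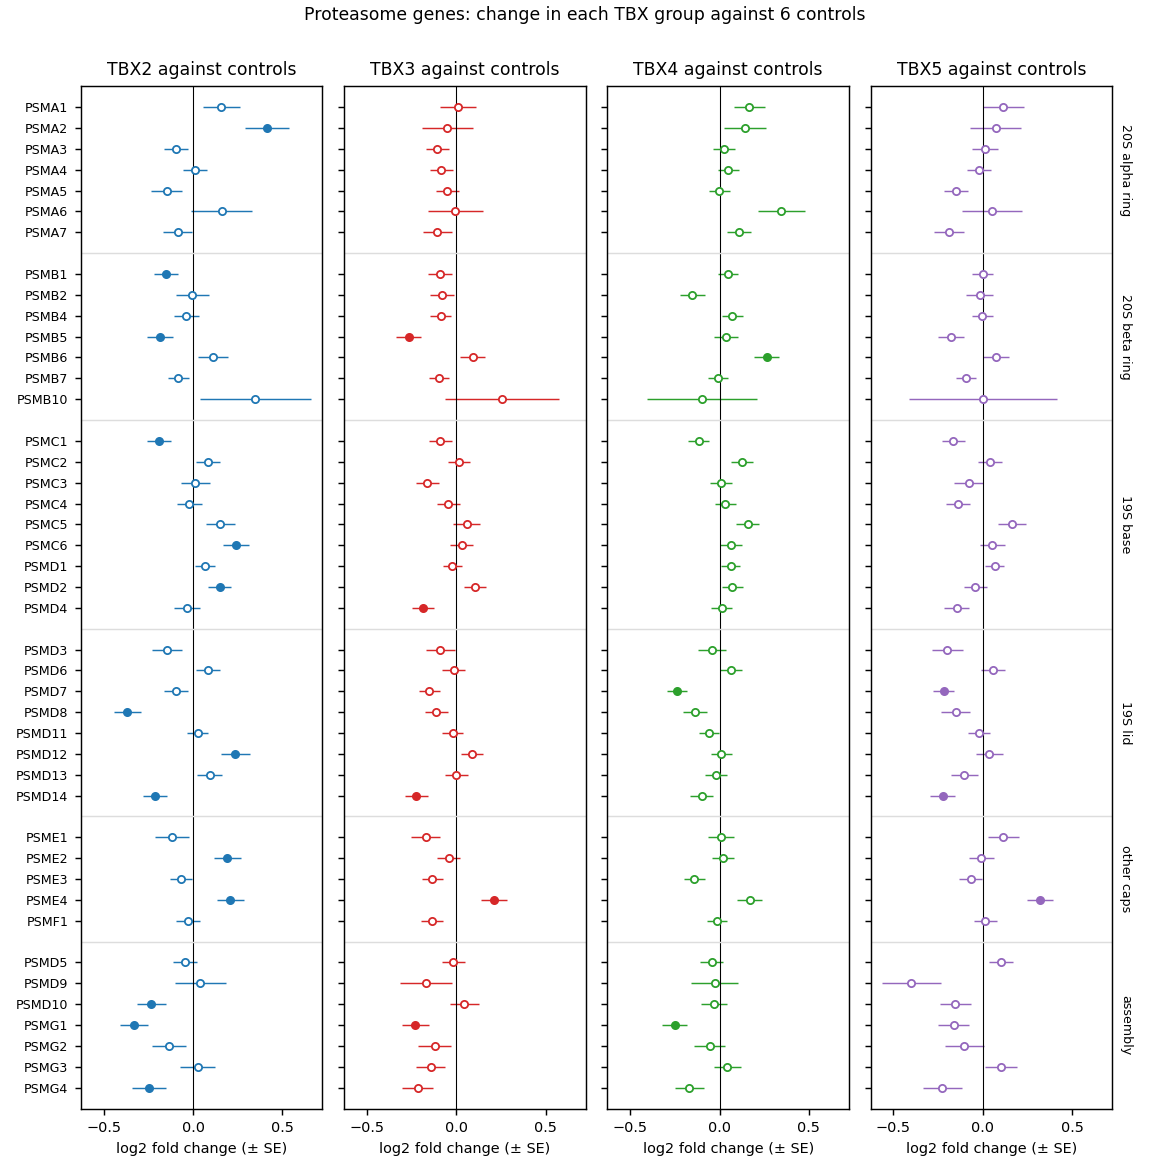
Log2 fold change against the 6 controls of the 43 tested subunit and chaperone genes in the TBX2, TBX3, TBX4 and TBX5 comparisons, with bars for the SE and filled points for an adjusted p under 0.1. Called values run from -0.37 for PSMD8 to 0.41 for PSMA2, both with TBX2.

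Over the 4 comparisons, 27 of the 45 genes were called in none, 12 in 1, 3 in 2 and 3 in 3. Of all genes tested, 55.7% were called in none, 25.4% in 1, 11.3% in 2, 5.10% in 3 and 2.48% in all 4. No member was called in all 4 or in both directions, where 0.828% of all genes were called in both directions. Calls in several comparisons rest partly on the same 6 controls. The 3 genes called in 3 comparisons are PSMG1, a chaperone that pairs with PSMG2 to seat the subunits of the alpha ring, PSMD14, the lid enzyme that cuts ubiquitin from the substrate, and PSME4, a single large protein that caps the barrel and opens it without ubiquitin. PSMG1 (ENSG00000183527) lies at chr21:40546695-40555414 on the minus strand of GRCh37, PSMD14 (ENSG00000115233) at chr2:162164936-162268228 on the plus strand and PSME4 (ENSG00000068878) at chr2:54091206-54198130 on the minus strand. Their promoters are shown because these 3 genes moved in more comparisons than any other member. The sequences are the 250 bases before the start of the gene, from RefSeq on GRCh38.p14, written 5′ to 3′ on the strand of the gene, with motif matches in capitals. They cover chr2:161308175-161308424 on the plus strand for PSMD14, chr2:53970994-53971243 on the minus strand for PSME4 and chr21:39183452-39183701 on the minus strand for PSMG1.
PSMD14: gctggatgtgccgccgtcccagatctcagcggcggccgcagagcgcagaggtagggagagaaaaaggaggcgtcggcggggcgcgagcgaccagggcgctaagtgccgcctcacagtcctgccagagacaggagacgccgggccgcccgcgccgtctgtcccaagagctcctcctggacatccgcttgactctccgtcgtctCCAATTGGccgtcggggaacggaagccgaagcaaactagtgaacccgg
PSME4: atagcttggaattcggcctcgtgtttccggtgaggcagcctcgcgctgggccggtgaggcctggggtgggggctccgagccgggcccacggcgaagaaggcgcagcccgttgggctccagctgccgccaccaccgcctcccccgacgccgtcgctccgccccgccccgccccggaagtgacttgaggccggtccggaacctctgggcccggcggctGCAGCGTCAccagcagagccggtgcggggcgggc
PSMG1: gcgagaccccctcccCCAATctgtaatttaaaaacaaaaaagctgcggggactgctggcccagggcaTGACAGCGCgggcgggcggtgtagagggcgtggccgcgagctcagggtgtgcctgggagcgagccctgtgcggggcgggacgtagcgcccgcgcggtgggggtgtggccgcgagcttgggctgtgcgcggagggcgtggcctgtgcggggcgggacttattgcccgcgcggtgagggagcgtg

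Each promoter was searched on both strands for CCAAT, the box known to bind NF-Y, for TGACNNNGC, the core of the antioxidant response element known to bind NFE2L1 and NFE2L2, and for GGTGTGA, a word known to bind T-box factors. PSMD14 held CCAAT on both strands, 48 and 45 bases before the start, and these 2 matches overlap each other. PSME4 held TGACNNNGC on the opposite strand, 34 bases before the start. PSMG1 held CCAAT 235 bases and TGACNNNGC 183 bases before the start, without overlap. Of the 43 tested subunit and chaperone genes, 37 had a RefSeq promoter, and PSMA7, PSMB1, PSMB6, PSMB7, PSMD4 and PSMG3 had none in the table. CCAAT was found in 16 of the 37 (43.2%) and in 10102 of all 27305 genes with a promoter. TGACNNNGC was found in 11 of the 37 (29.7%) and in 13.2% of all genes. GGTGTGA was found in 0 of the 37 and in 3.38% of all genes. A match is a description of the letters in this window only.

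In the core, TBX2 raised 1 alpha-ring gene and lowered 2 beta-ring genes out of 14, against 17.0% and 15.6% of all genes. DESeq2 called 2 of the 14, against 26.1% of all genes. PSMA2, an alpha-ring subunit, had 8.27, 8.45 and 9.09 CPM in TBX2 replicates a, b and c, against 5.47, 6.41 and 7.31 CPM as the lowest, median and highest control. All 3 TBX2 libraries were above every control, at 56 to 84 counts per library on a gene that shares exon bases with others. The log2 change of PSMA2 was 0.41 with an SE of 0.124 (adjusted p = 0.0165), and it passed without any 1 library. PSMB5, the beta-ring subunit with chymotrypsin-like activity, had 38.4, 44.9 and 38.8 CPM with TBX2, against 42.4, 45.9 and 50.9 CPM in the controls. Replicates a and c were below all controls and b was among them. PSMB5 fell by 0.18 (SE 0.0733, adjusted p = 0.0671), a call lost without Ctl replicate c, EV replicate c, TBX2 replicate a or TBX2 replicate c, with adjusted p of 0.102, 0.133, 0.271 and 0.212, in a range of 0.0194 to 0.732 over its 21 alternatives. The upper end of this range, and of those below against the controls, came from library totals, except for PSMB6 with TBX4. PSMB1 was the other beta-ring gene called lower, at -0.15 (SE 0.0646, adjusted p = 0.0906). Its call was lost without any of 6 libraries, at adjusted p of 0.111 without Ctl replicate c, 0.119 without EV replicate a, 0.127 without EV replicate b, 0.165 without EV replicate c, 0.334 without TBX2 replicate a and 0.279 without TBX2 replicate c, in a range of 0.0161 to 0.793 over the alternatives.

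The 19S cap held 3 genes that rose and 3 that fell with TBX2 out of 17, against 17.0% and 15.6% of all genes. DESeq2 called 5 of the 17, against 26.1% of all genes. PSMC6, an ATPase of the base, had 54.5, 65.6 and 66.2 CPM against 48.0, 51.7 and 58.1 CPM as the lowest, median and highest control. Replicates b and c were above all controls. PSMC6 rose by 0.24 (SE 0.0731, adjusted p = 0.0175), with an adjusted p of 0.1004 without TBX2 replicate b and a range of 0.00439 to 0.611 over the alternatives. PSMD2, a scaffold subunit of the base, rose by 0.15 (SE 0.0639, adjusted p = 0.0923). Its TBX2 libraries, each near 227 CPM, were above the highest control of 222 CPM, which was an EV library. Against the EV controls alone the change of PSMD2 was 0.07, and EV lay 0.17 above Ctl for this gene. DESeq2 did not call it. The call on PSMD2 held without EV replicate a or EV replicate c and was lost without any of the other 7 libraries, at adjusted p of 0.145, 0.155 and 0.158 without Ctl replicates a, b and c, 0.110 without EV replicate b and 0.179, 0.142 and 0.152 without TBX2 replicates a, b and c, in a range of 0.0230 to 0.784 over the alternatives. PSMC1 was called lower at -0.19 (SE 0.0665, adjusted p = 0.0365), on exons that it shares largely with NRDE2, and its adjusted p was 0.251 without TBX2 replicate a, in a range of 0.00926 to 0.719.

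In the lid, PSMD8, a subunit that joins late in lid assembly, had 155, 174 and 142 CPM with TBX2, against 173, 209 and 220.4 CPM as the lowest, median and highest control. Replicates a and c were below all controls, and b was above only the lowest of them, Ctl replicate a. PSMD8 fell by 0.37 (SE 0.0756, adjusted p = 0.000881), the smallest adjusted p among the members with TBX2, and the call held without any 1 library. PSMD14 had 105, 119 and 107 CPM against 119, 125 and 144 CPM in the controls, with a and c below all controls and b just above the lowest. PSMD14 fell by 0.21 (SE 0.0694, adjusted p = 0.0267), with an adjusted p of 0.138 without TBX2 replicate a, in a range of 0.00306 to 0.661. PSMD12, a scaffold subunit of the lid, had 91.9, 78.5 and 113 CPM against 72.6, 80.4 and 86.7 CPM. Replicates a and c were above all controls and b lay under the control median. PSMD12 rose by 0.24 (SE 0.0830, adjusted p = 0.0382), with an adjusted p of 0.401 and a log2 change of 0.10 without TBX2 replicate c, in a range of 0.00146 to 0.605.

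Among the other caps, 2 of 5 genes rose with TBX2, against 17.0% of all genes, and DESeq2 called 1, against 26.1%. PSME4 had 135, 128 and 142 CPM against 96.2, 118 and 128 CPM as the lowest, median and highest control, with a and c above all controls and b level with the highest. PSME4 rose by 0.21 (SE 0.0743, adjusted p = 0.0411), with adjusted p of 0.107 without TBX2 replicate a and 0.151 without TBX2 replicate c, in a range of 0.0243 to 0.662. PSME2, which with PSME1 forms a cap induced by interferon, had 34.1, 44.6 and 38.6 CPM against 32.8, 34.5 and 35.4 CPM, on a gene with 6 numbered pseudogenes. Replicates b and c were above all controls and a was among them. PSME2 rose by 0.19 (SE 0.0754, adjusted p = 0.0656), with adjusted p of 0.111 without EV replicate a and 0.572 without TBX2 replicate b, where the log2 change was 0.07, in a range of 0.0123 to 0.697. PSME1, its partner, had 18.5, 26.2 and 23.5 CPM against 22.6, 24.3 and 28.0 CPM, with only replicate a below the controls. Its log2 change was -0.12 (SE 0.0963, adjusted p = 0.401), and it was called lower without TBX2 replicate b, at -0.25, and turned to 0.02 without TBX2 replicate a.

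Assembly chaperones were the group with the lowest median, -0.13 with TBX2 against -0.00 for all genes. Of the 7, 3 fell, against 15.6% of all genes, while DESeq2 called 1, against 26.1%. PSMG1 had 21.9, 23.9 and 22.7 CPM against 26.3, 29.1 and 30.5 CPM as the lowest, median and highest control. All 3 TBX2 libraries were below every control. PSMG1 fell by 0.33 (SE 0.0766, adjusted p = 0.00258), and the call held without any 1 library. PSMD10, a chaperone of the ATPase ring, had 16.3, 17.9 and 16.6 CPM, below the lowest control at 19.04 CPM. Its log2 change was -0.23 (SE 0.0826, adjusted p = 0.0402), with adjusted p of 0.150 without TBX2 replicate a and 0.111 without TBX2 replicate c, in a range of 0.0140 to 0.665. PSMG4, which pairs with PSMG3 on the alpha ring, had 17.9, 20.5 and 15.9 CPM against a lowest control of 19.6 CPM, and its log2 change was -0.25 (SE 0.0968, adjusted p = 0.0659). That call was lost at adjusted p of 0.110 without EV replicate a, 0.139 without EV replicate c, 0.183 without TBX2 replicate a and 0.273 without TBX2 replicate c, in a range of 0.0247 to 0.637. PSME3IP1, which is no subunit, was called lower at -0.24 (SE 0.0855, adjusted p = 0.0385), with adjusted p of 0.217 without TBX2 replicate a and 0.158 without TBX2 replicate c, in a range of 0.00276 to 0.635.

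With TBX3, 6 of 45 members were called, against 14.9% of all genes, and 5 of the 6 were lower. The values of the set leaned negative, and a difference from all genes was not tested. The median of the 43 genes was -0.08, next to -0.00 for all genes, with 33 values negative and 10 positive. It stayed negative under every scaling run, and it was -0.05 without TBX3 replicate a. With library totals it was -0.15, but the median of all genes was then -0.08, so the distance between them did not grow. PSMB5 had 37.1, 35.9 and 41.8 CPM in TBX3 replicates a, b and c, all below the lowest control of 42.4 CPM. It fell by 0.26 (SE 0.0701, adjusted p = 0.0161), the only core gene called out of 14 by edgeR and by DESeq2, and the call held without any 1 library. PSMD14 had 105, 109 and 114 CPM, all below the lowest control of 119 CPM. It fell by 0.23 (SE 0.0643, adjusted p = 0.0250), with an adjusted p of 0.129 without TBX3 replicate a. The range over the alternatives was 0.00610 to 1.00, or up to 0.133 without library totals. PSMD4, a ubiquitin receptor of the base, was the other gene of the 19S cap called lower, at -0.19 (SE 0.0614, adjusted p = 0.0499). Its TBX3 libraries were all below the controls, by a narrow margin in replicate b, and its adjusted p was 0.107 without EV replicate a and 0.231 without TBX3 replicate a, in a range of 0.0161 to 1.00. PSMD7, the inactive partner of PSMD14, had 80.2, 80.1 and 72.5 CPM, again below the lowest control of 81.4 CPM. Its log2 change of -0.15 did not pass (SE 0.0582, adjusted p = 0.105) but did without Ctl replicate a or EV replicate c, at -0.16 in both.

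PSMG1 had 26.9, 23.4 and 23.7 CPM with TBX3, with b and c below all controls and a among them. It fell by 0.23 (SE 0.0748, adjusted p = 0.0498), the only assembly gene called out of 7, with adjusted p of 0.167 without TBX3 replicate b, 0.211 without TBX3 replicate c and 0.230 against the EV controls alone, in a range of 0.0219 to 1.00. PSME4 had 129.6, 127 and 147 CPM, with a and c above all controls and b under the highest. It rose by 0.21 (SE 0.0729, adjusted p = 0.0663), the 1 member called higher. The call on PSME4 was lost without any of 5 libraries, at adjusted p of 0.113 without Ctl replicate c, 0.109 without EV replicate a, 0.118 without EV replicate b, 0.106 without TBX3 replicate a and 0.370 without TBX3 replicate c, in a range of 0.0393 to 1.00. The other 4 genes of the caps and inhibitor all had negative values with TBX3, from -0.17 for PSME1 to -0.04 for PSME2, and none was called. PSME3, which caps the barrel in the nucleus, had 58.2, 54.3 and 54.8 CPM, all below the lowest control of 59.0 CPM, without passing the test. PSME3IP1, the partner of PSME3, had 45.3, 49.9 and 45.8 CPM, below the lowest control of 50.4 CPM. It fell by 0.26 (SE 0.0751, adjusted p = 0.0264), with adjusted p of 0.115 without TBX3 replicate a and 0.101 without TBX3 replicate c, in a range of 0.00454 to 1.00. The lean of the TBX3 median was smaller against the Ctl controls alone, where the median of the 43 genes minus that of all genes was -0.042, than against the EV controls alone, where it was -0.092.

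With TBX4, 1 core gene rose, and 1 lid gene and 1 assembly gene fell, where 6.97% of all genes were called higher and 6.07% lower. PSMD7 had 72.1, 70.9 and 76.0 CPM in TBX4 replicates a, b and c, against 81.4, 85.9 and 90.6 CPM as the lowest, median and highest control. All 3 TBX4 libraries were below every control, and PSMD7 fell by 0.24 (SE 0.0551, adjusted p = 0.00682) without losing the call when any 1 library was left out. PSMB6, the beta-ring subunit with caspase-like activity, had 97.1, 87.5 and 80.5 CPM against 65.9, 72.2 and 81.7 CPM. Replicates a and b were above all controls and c was under the highest. PSMB6 rose by 0.26 (SE 0.0698, adjusted p = 0.0174), with an adjusted p of 0.155 without TBX4 replicate a, in a range of 0.00232 to 0.155. PSMG1 had 24.1, 24.6 and 24.1 CPM, all below the lowest control of 26.3 CPM. It fell by 0.25 (SE 0.0679, adjusted p = 0.0193), held without any 1 library and had an adjusted p of 0.153 against the EV controls alone, in a range of 0.0108 to 0.958. Of the 5 other caps and inhibitor, 0 were called by edgeR, with 2 at an unadjusted p under 0.05, and 0 by DESeq2. PSME4 had 131, 122 and 141 CPM with a log2 change of 0.17 (SE 0.0692, adjusted p = 0.135), and it was called higher without Ctl replicate a, Ctl replicate b or EV replicate c, at 0.20, 0.19 and 0.19. PSMD8 had 199, 185 and 171 CPM, with only replicate c below all controls. Its log2 change was -0.14 (SE 0.0658, adjusted p = 0.211), and it was called lower without Ctl replicate a, at -0.18. With 1 library left out this change ran from -0.19 to -0.08, and the adjusted p was 0.623 without TBX4 replicate c. PSMD8 turned to 0.13 with library totals, under which PSMD7 and PSMG1 also turned, to 0.03 and 0.01. The median of the 43 genes with TBX4 was 0.01, which turned to -0.01 with totals that leave out the most counted gene and to -0.02 against the EV controls alone. It was -0.01 without Ctl replicate a and 0.04 without TBX4 replicate c.

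With TBX5, 2 lid genes fell and 1 cap gene rose, where 6.12% of all genes were called lower and 6.55% higher. PSME4 had 153, 139 and 143 CPM in TBX5 replicates a, b and c, against 96.2, 118 and 128 CPM as the lowest, median and highest control. All 3 TBX5 libraries were above every control, and PSME4 rose by 0.32 (SE 0.0734, adjusted p = 0.00803), a call that held without any 1 library and was lost with library totals, at 0.01. PSMD7 had 74.9, 71.6 and 74.6 CPM, all below the lowest control of 81.4 CPM. It fell by 0.22 (SE 0.0597, adjusted p = 0.0246), with an adjusted p of 0.111 without TBX5 replicate b, in a range of 0.0135 to 0.289. PSMD14 had 117, 106 and 105 CPM, all below the lowest control of 119 CPM. It fell by 0.23 (SE 0.0682, adjusted p = 0.0430), with adjusted p of 0.165 without TBX5 replicate b and 0.195 without TBX5 replicate c, in a range of 0.00905 to 0.285. In the core, 0 of 14 genes were called by edgeR, with 3 at an unadjusted p under 0.05, and 0 by DESeq2. PSMB5 had 44.9, 37.70 and 39.5 CPM, with b and c below all controls. Its log2 change of -0.18 did not pass (SE 0.0747, adjusted p = 0.150) but did without TBX5 replicate a, at -0.27. Among the assembly chaperones, 0 of 7 were called by edgeR, with 1 at an unadjusted p under 0.05, and 0 by DESeq2. That gene, PSMD9, had the largest absolute change of any member with TBX5, -0.40 (SE 0.165, adjusted p = 0.142), at 5.77, 4.76 and 4.47 CPM against 5.37, 6.87 and 7.64 CPM. Replicates b and c were below all controls, and PSMD9 was called lower without EV replicate a, at -0.45. PSMG1 had 25.4, 22.4 and 29.4 CPM, with replicate c among the controls and a and b below them, and a log2 change of -0.16 (SE 0.0855, adjusted p = 0.265). With 1 library left out this change ran from -0.25 to -0.09.

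**Figure D3:**
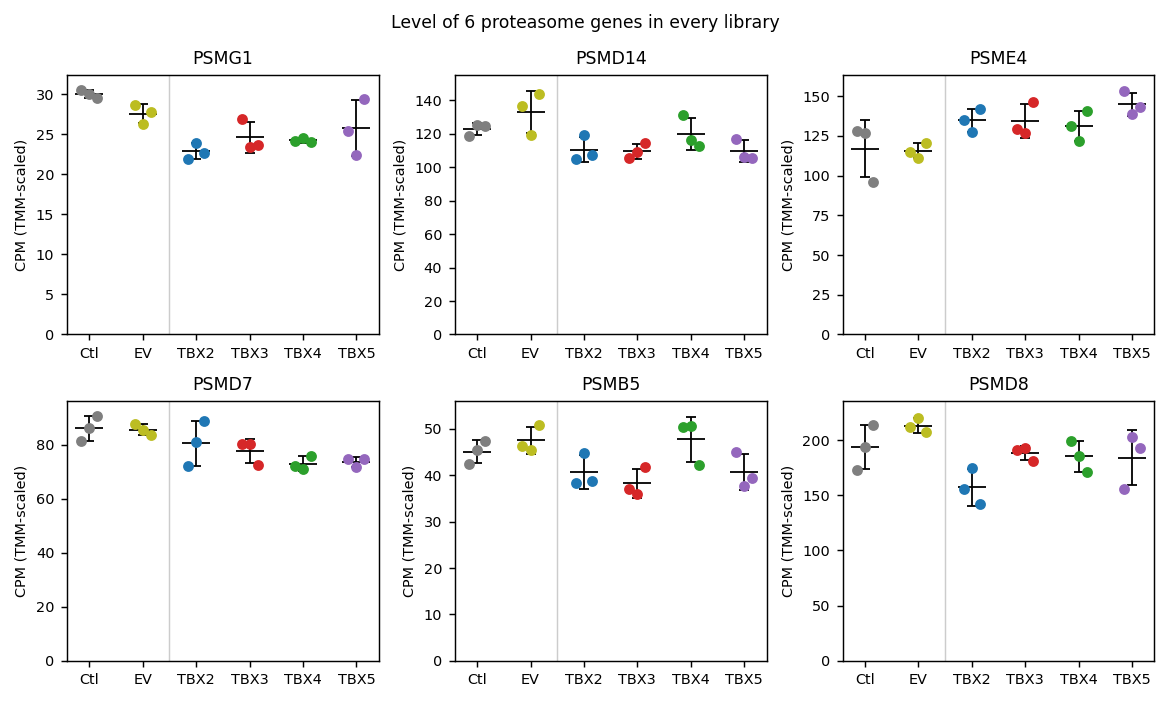
Levels in CPM of PSMG1, PSMD14, PSME4, PSMD7, PSMB5 and PSMD8 in each of the 18 libraries by group, with points for libraries and bars for the mean and SD of each group. PSMG1 with TBX2 and TBX4 lies at 21.9 to 24.6 CPM, below the control libraries at 26.3 to 30.5, and PSME4 with TBX5 lies at 139 to 153 CPM, above the controls at 96.2 to 128.

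Pairs of TBX groups were also compared, in a single fit over the 18 libraries, since a call in one comparison and not in another does not show a difference. Between TBX2 and TBX3, 5 of 45 genes were called, against 15.5% of all genes, and DESeq2 called 1. PSMA2 was 0.46 higher with TBX2 than with TBX3 (SE 0.151, adjusted p = 0.0459), at 5.11, 7.996 and 5.91 CPM in TBX3 replicates a, b and c. PSMC6 was 0.21 higher (adjusted p = 0.0710), and PSME2 was 0.23 higher (adjusted p = 0.0734). PSMD8 was lower with TBX2 by a log2 difference of -0.26 (adjusted p = 0.0623), at 191, 193 and 181 CPM with TBX3, and PSMD10 by -0.28 (adjusted p = 0.0512), at 20.3, 17.95 and 22.5 CPM with TBX3. Single libraries decided most of these calls. The count became 3 without TBX2 replicate a, 1 without TBX2 replicate c, 1 without TBX3 replicate a, 2 without TBX3 replicate b and 1 without TBX3 replicate c. The call on PSMA2 was lost without TBX2 replicate c, TBX3 replicate a or TBX3 replicate c, at log2 differences of 0.43, 0.36 and 0.40. Those on PSMC6 and PSME2 held without TBX2 replicate a alone and were lost without each of the other 5 libraries, at 0.16 for PSMC6 and 0.12 for PSME2 without TBX2 replicate b, at 0.17 and 0.24 without TBX2 replicate c, at 0.19 and 0.24 without TBX3 replicate a, at 0.22 and 0.25 without TBX3 replicate b and at 0.22 and 0.20 without TBX3 replicate c. PSMD8 lost its call without TBX2 replicate a, TBX2 replicate c, TBX3 replicate a or TBX3 replicate b, at -0.25, -0.19, -0.25 and -0.24, and PSMD10 without TBX2 replicate a, TBX2 replicate c or TBX3 replicate c, at -0.25, -0.27 and -0.18.

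Between TBX3 and TBX4, 1 of 45 genes was called, against 9.97% of all genes, and DESeq2 also called 1. The gene was PSMB5, which was lower with TBX3 by a log2 difference of -0.31 (SE 0.0870, adjusted p = 0.0308), at 50.3, 50.7 and 42.2 CPM in TBX4 replicates a, b and c. TBX4 replicate c was nearest to the TBX3 libraries. The count became 0 without TBX3 replicate a, TBX3 replicate b, TBX4 replicate a or TBX4 replicate b, at log2 differences of -0.28, -0.27, -0.27 and -0.26 for PSMB5, and 3 without TBX3 replicate c. Between TBX2 and TBX5, 1 of 45 was called, against 12.1%, by edgeR and by DESeq2. PSMD2 was 0.19 higher with TBX2 (adjusted p = 0.0530), at 210.3, 193 and 193 CPM in TBX5 replicates a, b and c. The call on PSMD2 was lost without TBX2 replicate a, TBX5 replicate b or TBX5 replicate c, at 0.19, 0.17 and 0.17. The count became 3 without TBX2 replicate a, 4 without TBX2 replicate b, 4 without TBX5 replicate a and 0 without TBX5 replicate b.

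In the other 3 pairs, edgeR and DESeq2 called 0 members. The background here is the share of all genes at an adjusted p under 0.1, and it is no measure for counts at an unadjusted p. Between TBX2 and TBX4 the background was 12.3%, and 8 members had an unadjusted p under 0.05. The edgeR count became 3 without TBX2 replicate a, 9 without TBX2 replicate b and 3 without TBX4 replicate c. Between TBX3 and TBX5 the background was 7.41% and 4 members had an unadjusted p under 0.05, and the count became 1 without TBX5 replicate a and 1 without TBX5 replicate c. Between TBX4 and TBX5 the background was 0.539%. At an unadjusted p under 0.05, a looser threshold, 5 members passed. With library totals, the median of all genes was -0.25 between TBX2 and TBX4, 0.32 between TBX2 and TBX5, -0.34 between TBX3 and TBX4, 0.23 between TBX3 and TBX5 and 0.57 between TBX4 and TBX5. PSMG1, PSMD14, PSME4 and PSMD7 were called in 0 of the 6 pairs by edgeR's test, so their changes were not shown to differ between the TBX groups. PSMD7 was called higher with TBX2 than with TBX4 without TBX2 replicate a, at 0.21. A missing call does not show that values were equal.

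Among the proteolytic PSMB5, PSMB6 and PSMB7 and the inducible PSMB10, PSME1 and PSME2, the calls were those given above, PSMB5 lower with TBX2 and TBX3, PSMB6 higher with TBX4 and PSME2 higher with TBX2. PSMB7, with trypsin-like activity, had 133, 140.1 and 147 CPM as the lowest, median and highest control and 126 to 145 CPM over the 12 TBX libraries, and its log2 changes were -0.08, -0.10, -0.01 and -0.09 with TBX2, TBX3, TBX4 and TBX5, none of them called. PSMB6 had 76.1, 92.1 and 68.3 CPM with TBX2, 75.2, 79.2 and 80.2 CPM with TBX3 and 76.8, 79.2 and 76.3 CPM with TBX5, which overlap the controls. PSMB10 stood at 0.644 to 1.29 CPM in the controls and at 0.558 to 1.70 CPM in the TBX libraries, 3 to 20 counts per library. The SE of its log2 changes was 0.308 to 0.416, so small changes of PSMB10 could not be seen at this depth. PSME1 had log2 changes of -0.12, -0.17, 0.01 and 0.12 and was called in none of the 4 comparisons.

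Set side by side, each of the 4 classes held 0 to 6 calls per comparison, to be read beside the shares of all genes, which with TBX2 were 17.0% higher and 15.6% lower, with TBX3 8.47% and 6.40%, with TBX4 6.97% and 6.07% and with TBX5 6.55% and 6.12%. In the 20S core of 14 genes, 1 was called higher and 2 lower with TBX2, 0 and 1 with TBX3, 1 and 0 with TBX4, and none with TBX5. In the 19S cap of 17 genes, 3 were called higher and 3 lower with TBX2, 0 and 2 with TBX3, 0 and 1 with TBX4, and 0 and 2 with TBX5. Of the 5 other caps and inhibitor, 2 were called higher with TBX2 and 1 each with TBX3 and TBX5, always including PSME4, and none was called lower. Of the 7 assembly genes, 3 were called lower with TBX2 and 1 each with TBX3 and TBX4, always including PSMG1, and none was called higher. The median log2 change in TBX2, TBX3, TBX4 and TBX5 was -0.02, -0.08, 0.05 and -0.00 for the core and 0.03, -0.02, 0.01 and -0.08 for the 19S cap. It was -0.03, -0.14, 0.01 and 0.01 for the other caps and -0.13, -0.14, -0.04 and -0.15 for the assembly genes, next to values between -0.01 and 0.00 for all genes. With library totals all 43 values were positive with TBX4, so the negative median of the assembly genes there holds only relative to all genes. The assembly median stayed negative without any 1 library in each of the 4 comparisons, although single libraries differed. With TBX4 the median deviation was 0.03 in replicate a, -0.13 in b and -0.10 in c. With TBX5 the median deviation of replicate c was 0.00 while a and b were at -0.18 and -0.16. The medians of the whole core and the whole 19S cap were not rerun under the alternatives. A difference between classes was not tested.

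Summed over its genes, the assembly class had 163 ± 4.35 CPM with TBX2 (SD, n = 3) and 179 ± 4.83 CPM in the controls (SD, n = 6). The TBX2 libraries, at 158 to 166 CPM, were all below the controls, at 173 to 185 CPM, and the TBX3 libraries, at 158 to 173 CPM, touched the lowest of them. The other caps and inhibitor had 317 ± 4.54 CPM with TBX2, 329 ± 12.8 CPM with TBX5 and 300.1 ± 11.1 CPM in the controls. Libraries of TBX2, at 314 to 323 CPM, and of TBX5, at 315 to 341 CPM, were above the controls, at 283 to 311 CPM, and PSME4 carried this, whose mean was 116 CPM in the controls, 135 CPM with TBX2 and 145 CPM with TBX5. The core had 923 ± 48.3, 909 ± 54.7, 998 ± 46.4 and 936 ± 41.2 CPM with TBX2, TBX3, TBX4 and TBX5 and 963 ± 27.4 CPM in the controls, with overlap between each TBX group and the controls. The 19S cap had 1696 ± 59.4, 1659 ± 2.70, 1710 ± 33.7 and 1633 ± 19.3 CPM, which all overlap the controls at 1716 ± 69.5 CPM. Within the controls, EV had 1767 ± 19.2 CPM of the 19S cap and Ctl 1665 ± 62.6 CPM, without overlap.

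**Figure D4:**
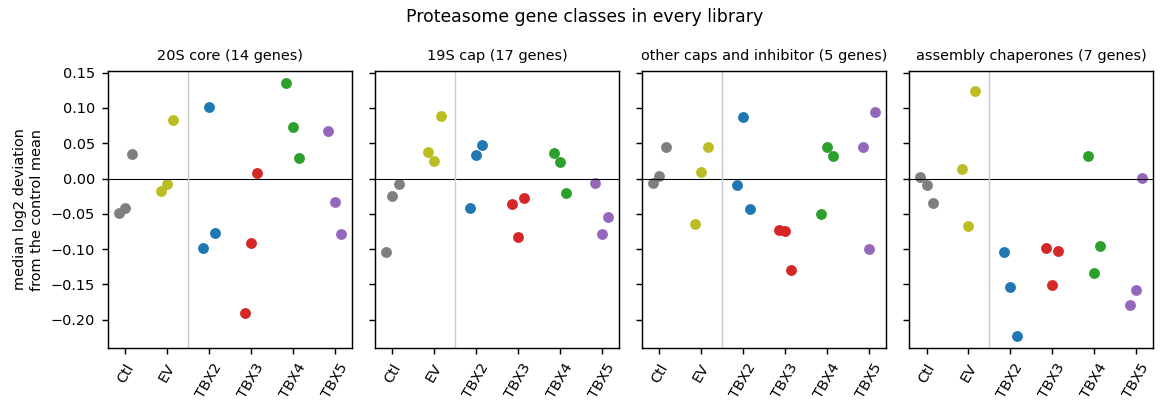
Median log2 deviation from the control mean in each of the 18 libraries for the 20S core (14 genes), the 19S cap (17), the other caps and inhibitor (5) and the assembly chaperones (7), with libraries as points by group. The assembly chaperones lie at -0.22 to -0.10 with TBX2, at -0.15 to -0.10 with TBX3, and in the controls at -0.07 to 0.12. With TBX4 they lie at -0.13 to 0.03 and with TBX5 at -0.18 to 0.00, which overlap the controls.

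Genes that work with the proteasome, a list of 31 of which all were tested, were read from the same fits. With TBX2, 2 were called higher and 7 lower, with TBX3 2 and 3, with TBX4 0 and 5, and with TBX5 2 and 4, against the shares of all genes given above. VCP, the segregase that pulls ubiquitinated proteins out of complexes, had 331 to 384 CPM in the controls and 278, 298 and 256 CPM with TBX2, and fell by 0.33 with TBX2, 0.19 with TBX3 and 0.18 with TBX5, with -0.12 not called with TBX4. ECPAS, an adaptor of the 26S particle, fell by 0.21, 0.17 and 0.21 with TBX2, TBX4 and TBX5, and its value of -0.14 with TBX3 was not called. NFE2L1, the factor that raises subunit genes when the proteasome is inhibited, rose by 0.21 with TBX3 and was not called in the other 3 comparisons. POMP, the chaperone that joins the core rings, had 31.8 to 39.5 CPM in the controls and was called in none. These genes were tested in the same fits and were not run under the alternatives.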

How the data were processed

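The counts were made by the authors before they were deposited: per the submitters' processing notes, base calls were converted with bcl2fastq 1.8.4, reads were aligned to GRCh37 with STAR 2.3.0, and reads per gene were counted with featureCounts at its defaults. Those default settings ignore the strand. A gene was tested if 10 or more of the 18 libraries held over 5 counts of it, which kept 15576 of 63677. Each TBX group was fitted against the 6 controls, EV against Ctl in its own fit, and pairs of TBX groups in 1 fit of 18 libraries. Tests used edgeR 4.0.16 in R 4.3.3, with TMM scaling, the quasi-likelihood F test and Benjamini-Hochberg adjustment over all genes tested, at an adjusted p under 0.1. DESeq2 1.42.0 was the second tool, and tables and figures were made in Python 3.11.15. The SE was derived from the fold change and the F statistic, as the size of the log2 value divided by sqrt(F). CPM values are TMM-scaled, and levels between genes were divided by transcript length. Symbols, roles and exon overlaps came from a GENCODE annotation lifted to GRCh37. PSMB3, whose identifier in the matrix had no symbol, was not analysed here.

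Named genes were first the 3 called subunit or chaperone genes with the smallest p per direction and comparison, which left out PSME3IP1. The others were the proteolytic PSMB5, PSMB6 and PSMB7, PSMB10, PSME1 and PSME2, and the assembly or cap gene with the largest absolute change in each TBX comparison. The other genes named in the text were chosen after the values were seen. Members and lists were chosen with earlier results of these data known. Alternatives changed the tool, the scaling, the filter, the controls, the threshold and the libraries, and offsets for GC content and exon length were fitted per library by lowess with a span of 0.3. The offsets for GC content were added after the data were seen. Per-sample columns not used numbered 0. The edgeR fit was tested on simulated counts with 200 changed genes. Their changes were larger than any reported here for a proteasome gene, so this test does not cover changes of the reported size.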

Additional observations from a re-analysis of the deposited data

Results flagged for a closer look

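PSMA2 was higher with TBX2 than with TBX3, by a log2 difference of 0.46. PSMC6 was higher with TBX2 than with TBX3, by 0.21. PSME2 was higher with TBX2 than with TBX3, by 0.23. PSMD8 was lower with TBX2 than with TBX3, at a log2 difference of -0.26. PSMB5 was lower with TBX3 than with TBX4, at a log2 difference of -0.31. With 1 library left out, the calls on PSMC6 and PSME2 were each lost in 5 of 6 fits, those on PSMD8 and PSMB5 in 4 of 6 and that on PSMA2 in 3 of 6. DESeq2 did not call PSMA2, PSMC6 or PSME2, and with library totals none of the 5 was called.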

How the results depend on the processing

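The counts of called members depended on the scaling, the filter, the controls and single libraries. With library totals they were 0 for TBX2, 0 for TBX3, 7 for TBX4 and 0 for TBX5 against the controls, 0 for TBX2 against TBX3, 0 for TBX2 against TBX5, 0 for TBX3 against TBX4 and 33 for TBX4 against TBX5, where the median of all genes was then 0.57, and the TBX4 changes of PSMD7 and PSMG1 turned to 0.03 (0.0269) and 0.01 (0.0123). Totals without the most counted gene gave 11 for TBX3 and 5 for TBX4. Ctl controls alone gave 6 for TBX2, 3 for TBX3 and 5 for TBX4, where 25.8%, 10.7% and 11.6% of all genes were called. EV controls alone gave 5 for TBX4 and 5 for TBX5, where 9.27% and 8.97% were called. No filter on low counts gave 7 for TBX5, and exon length offsets gave 5 for TBX4, where 4.62% and 13.3% of all genes were called. A required change of 0.5 or more on the log2 scale gave 0 in all 4. DESeq2 gave 1 for TBX2 against TBX3. A replicate block gave 1 for TBX2 against TBX4 and 1 for TBX3 against TBX5. Libraries of the same letter had a mean correlation of 0.000176, and those of other letters -6.04e-05. These means show no pairing by letter but cannot exclude it, and the labels do not say what the letters stand for. Leaving out 1 library gave 6 to 16 for TBX2, 2 to 9 for TBX3, 2 to 7 for TBX4, 1 to 5 for TBX5 and 0 to 1 for EV against Ctl. In the same order, the shares of all genes called were 26.3% to 31.5%, 9.92% to 14.5%, 7.85% to 14.4%, 6.85% to 11.8% and 0.141% to 1.48%. The pairs gave 1 to 6 for TBX2 against TBX3, 0 to 9 for TBX2 against TBX4 and 0 to 4 for TBX2 against TBX5. They gave 0 to 3 for TBX3 against TBX4, 0 to 1 for TBX3 against TBX5 and 0 to 0 for TBX4 against TBX5. Shares of all genes are not given for pairs with 1 library left out. Over the alternatives of 75 results on named members, 1455 stayed the same, 81 were weaker, 20 stronger, 87 moved and 2 reversed. Most of the 75 were not called to begin with, so many of the 1455 are missing calls that stayed missing. The call on PSME4 with TBX3, for example, held in 12 of 21 alternatives. The 2 reversed are PSMD7 and PSMG1 with TBX4, without the uncalled PSMD8, whose sign also changed. Of the medians of the role groups, 606 stayed the same and 54 moved. The cause was not tested.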
